A study of Mus musculus with 8 samples.

Results

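The transcription factors that pattern jaw and tooth mesenchyme were examined as a set of 10 genes in molar cells labelled as null for Ctnnb1, which encodes beta-catenin. The set was listed by name (Prrx1, Prrx2, Twist1, Twist2, Osr2, Barx1, Pax9, Lhx6, Lhx8 and Pitx1), and all 10 were found among the 56748 genes of the count table and passed the filter on low counts. RNA was sequenced in bulk from tdTomato-positive cells sorted at postnatal day 10 from lower molars of mice given tamoxifen at day 3. The cKO group held 4 libraries labelled Ctnnb1(-/-), and the cHet group held 4 libraries labelled Ctnnb1(+/-). The cHet cells thus carried 1 deleted copy of Ctnnb1 and had also been exposed to tamoxifen, and no wild-type cells entered the comparison. The label for cell type gives CXCL12+ cells of the apical papilla, which lies below the pulp around the forming root end. Other label fields name dental pulp as the tissue and follicle cells as the ones dissociated. The sources used here give neither the driver of the recombinase nor the deleted exons. Since no label ties a library to an animal of its own, p-values here cover only differences among libraries, which may be technical.

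Jaw mesenchyme descends from cranial neural crest cells that fill the first pharyngeal arch, where signals from the overlying epithelium switch on homeobox and related genes in overlapping domains. These genes give the mesenchyme its position and its capacity to form teeth. In the mouse, loss of Pax9 or joint loss of Lhx6 and Lhx8 arrests molar development, while loss of Osr2 lets extra teeth form beside the molars. Twist factors bind E-box sequences as dimers with other basic helix-loop-helix proteins, and Prrx factors are paired-type homeodomain proteins of limb and face mesenchyme.

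The sequences just upstream of 3 of the genes are shown, chosen by the results for these genes. No result was tested against the sequences. Prrx1 was the only gene of the set called in the main test. Twist1 and Twist2 are related genes whose balance separated the groups in a comparison not planned at the outset. That comparison had an exact permutation p of 0.0857 adjusted over 3 pairs. The sequences are the 250 bases before the annotated start in RefSeq (build GRCm38.p6), written 5′ to 3′ in the direction of transcription. Capitals mark each match to the motifs searched, and positions are counted back from the start.
Prrx1 (chr1:163313651-163313900, minus strand): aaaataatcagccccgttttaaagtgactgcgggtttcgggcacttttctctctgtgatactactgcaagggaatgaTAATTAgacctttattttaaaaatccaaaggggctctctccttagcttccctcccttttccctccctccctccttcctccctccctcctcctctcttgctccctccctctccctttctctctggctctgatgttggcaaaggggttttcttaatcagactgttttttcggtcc
Twist1 (chr12:33957421-33957670, plus strand): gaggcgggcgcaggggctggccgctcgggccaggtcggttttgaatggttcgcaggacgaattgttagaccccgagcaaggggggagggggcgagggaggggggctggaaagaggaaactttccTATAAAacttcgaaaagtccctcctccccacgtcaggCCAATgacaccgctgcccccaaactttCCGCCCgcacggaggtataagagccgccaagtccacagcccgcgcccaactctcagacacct
Twist2 (chr1:91801211-91801460, plus strand): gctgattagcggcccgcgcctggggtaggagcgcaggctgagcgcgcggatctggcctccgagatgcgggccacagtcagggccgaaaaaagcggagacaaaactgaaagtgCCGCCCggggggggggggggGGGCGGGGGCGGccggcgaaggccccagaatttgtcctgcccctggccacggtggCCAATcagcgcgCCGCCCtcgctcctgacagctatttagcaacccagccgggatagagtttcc
The capitals in Prrx1 are a TAATTA, the core bound by many homeodomain proteins, at position −173. Those in Twist1 are a TATAAA at −126, a CCAAT at −89 and a GGGCGG on the opposite strand at −62. Those in Twist2 are 4 copies of GGGCGG, on either strand, at −138, −118, −112 and −51 and a CCAAT at −63.

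Windows of the same kind, reaching 50 bases past the start, were found for 8 of the 10 genes, in 10 windows, since Lhx6 has 3. Each motif was searched on both strands, and no match of one motif overlapped a match of another in the 3 sequences shown. The sequence CTTTGA, a form of the core bound by the TCF and LEF partners of beta-catenin, was in 0 of the 10 windows and in 16% of the 32851 windows of all genes. Other forms of that core were not searched, so the windows may hold them. CANNTG, the E-box, was in 2 of the 10 windows, for Lhx6 and Pax9, against 72.3% of all windows. TAATTA was in 1 of the 10 and in 5.29% of all, GGGCGG in 6 and 35.7%, CCAAT in 4 and 37.4%, and TATAAA in 2 and 13.6%.

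Libraries held between 44444033 and 50051392 counts, and 21508 genes were tested. Ctnnb1 itself had 277 ± 39.2 normalised counts (CPM, scaled with trimmed-mean factors) in cKO and 257 ± 40.2 CPM in cHet (SD, n = 4 each). A count over the whole gene cannot check a deletion of some exons, so it did not check the labels. Cxcl12, the chemokine gene that names the sorted cells, stood at 491 to 1001 CPM in cKO and 66.4 to 268 CPM in cHet. Of 9 dental papilla markers that include Cxcl12, 6 had positive log2 fold changes (beside 47.5% of all tested genes) and 3 negative ones. For 5 of the 9 every cKO library lay above every cHet library, beside 6.46% of all tested genes. The reverse held for 2, Tac1 (log2 −1.65) and Notum (log2 −1.49), beside 3.68%. The summed level of 16 general mesenchyme markers, such as collagens and PDGF receptors, was 14570 to 29449 CPM in cKO and 3793 to 12725 CPM in cHet. That of 14 olfactory sensory neuron markers was 7405 to 9447 CPM in cKO and 8863 to 14959 CPM in cHet, so transcripts of genes known from the nose were counted in every library. The neutrophil markers summed to 24.7 to 1300 CPM in cKO and 51.1 to 19742 CPM in cHet, with the highest value in cHet12. The 9 macrophage markers summed to 122 to 358 CPM in cKO and 191 to 3119 CPM in cHet. The 8 ameloblast markers summed to 4712 to 8553 CPM in cKO and 2316 to 11466 CPM in cHet, so enamel transcripts were counted in every library. None of the markers in these lists was at 0 in all libraries. The part of these differences in the results that follow was not tested beyond the fits named with them. In bulk samples, fewer cells of a type and less RNA per cell cannot be told apart.

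Most of the set stood higher in cKO, and the size of the difference varied from gene to gene. Values are CPM, and the test was edgeR's quasi-likelihood test with Benjamini-Hochberg adjustment over all tested genes. At an adjusted p under 0.05, 1 of the 10 genes was called higher and 0 lower, beside 1.08% of all tested genes called higher and 0.0558% called lower. At an unadjusted p under 0.05, 8 of the 10 were higher, beside 10.8% of all tested genes, and 0 were lower, beside 6.33%. For the same 8 genes every cKO library lay above every cHet library, which held for 6.46% of all tested genes, and every cKO library lay below every cHet library for 0, beside 3.68%. The log2 fold change was positive for 9 of the 10, beside 47.5% of all tested genes. The median log2 fold change of the set was 1.73, and that of all tested genes was −0.03. The remaining genes, Twist1 and Pitx1, had overlapping groups.

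**Figure D1:**
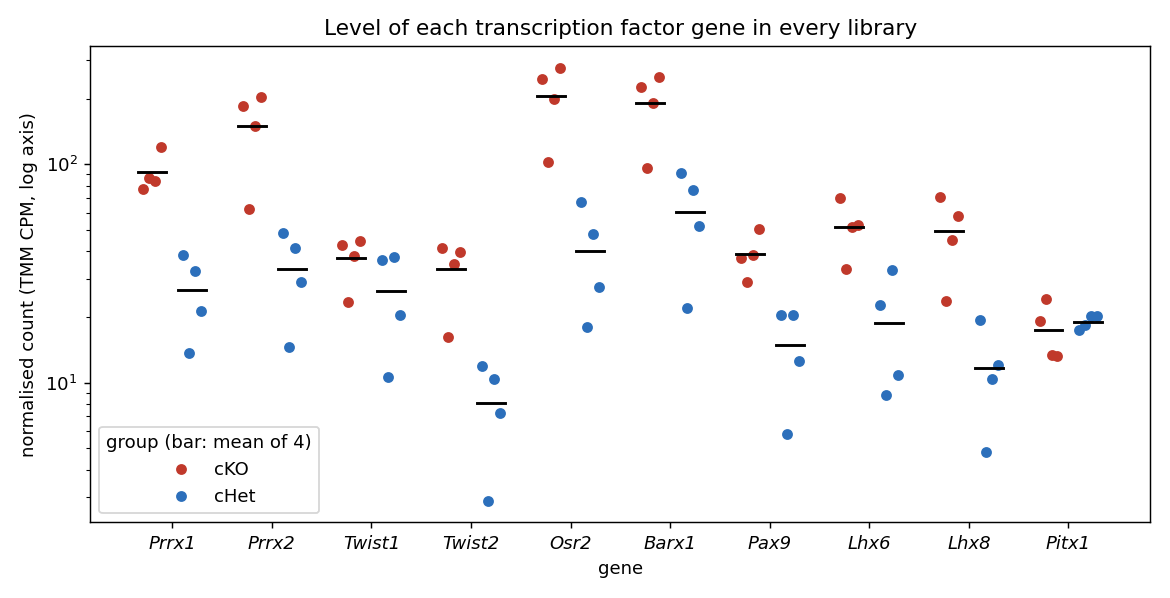
Normalised counts (TMM CPM, log axis) of the 10 genes, with 1 point for each library and a bar at the mean of 4; cKO stands left of cHet for each gene. The groups do not overlap for 8 genes, although the lowest cKO point of Barx1 and of Lhx6 lies just above the highest cHet point, and they overlap for Twist1 and Pitx1.

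The paired-related homeobox genes Prrx1 and Prrx2 came first in order of adjusted p together with Osr2. Prrx1 (ENSMUSG00000026586.17), a factor of undifferentiated limb and face mesenchyme, had 77.4, 86.4, 84.0 and 120 CPM in cKO7, cKO9, cKO14 and cKO15, against 38.6, 13.6, 32.3 and 21.2 CPM in cHet8, cHet11, cHet12 and cHet14. All cKO libraries were at least as high as 77.4 CPM and no cHet library passed 38.6 CPM. Prrx1 rose 3.48-fold in cKO (log2 1.80, SE 0.32, adjusted p = 0.0455 by edgeR), with 91.9 ± 19.0 CPM in cKO and 26.5 ± 11.2 CPM in cHet (SD, n = 4 each). The call is close to the threshold. It held without cKO9 (log2 1.82, adjusted p = 0.0371) or cHet8 (log2 2.04, adjusted p = 0.0437) and was lost without any of the other 6 libraries, with adjusted p between 0.0782 and 0.157.

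Prrx2 (ENSMUSG00000039476.14), its close relative with an overlapping role in the face, had 186, 62.3, 150 and 204 CPM in cKO7, cKO9, cKO14 and cKO15. In cHet8, cHet11, cHet12 and cHet14 it had 48.6, 14.6, 41.4 and 28.8 CPM. The cKO libraries lay above all cHet libraries, with cKO9 nearest to them. The mean was 4.51-fold higher in cKO (log2 2.17, SE 0.46) without passing over all genes (adjusted p = 0.0658 by edgeR). Without cKO9 it passed (log2 2.43, adjusted p = 0.0243). Among the cKO libraries cKO9 was also the one in which Prrx1 exceeded Prrx2, as a share of the counts of both (58.1%, against 29.4% to 37.0% in the other cKO libraries and 42.4% to 48.3% in cHet).

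The basic helix-loop-helix genes Twist1 and Twist2 differed from each other. Twist2 (ENSMUSG00000007805.5), a repressor known in dermis and bone precursors, had 41.4, 16.3, 35.0 and 39.8 CPM in cKO7, cKO9, cKO14 and cKO15, against 11.9, 2.88, 10.4 and 7.23 CPM in cHet8, cHet11, cHet12 and cHet14. Its groups did not overlap, and its mean was 4.09-fold higher in cKO (log2 2.03, SE 0.46, adjusted p = 0.0814 by edgeR, and 0.0366 without cKO9). Twist1 (ENSMUSG00000035799.7), which in the mouse is needed for cranial mesenchyme and skull sutures, had 42.6, 23.5, 38.1 and 44.6 CPM in the same cKO libraries and 36.3, 10.6, 37.6 and 20.4 CPM in the same cHet libraries. The groups overlapped, since cHet8 and cHet12 lay within the cKO range, and the log2 fold change was 0.50 (SE 0.39, adjusted p = 0.573 by edgeR). The sign of the Twist1 value turned to −0.54 with the mesenchyme score as covariate and to −0.25 with the olfactory score as covariate. An exon of an antisense gene overlaps Twist2 in the annotation used, and reads of either strand cannot be told apart in these libraries.

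The balance between the Twist genes does not depend on how libraries are scaled. Of the counts of both genes, Twist1 took 50.7%, 59.1%, 52.1% and 52.8% in cKO7, cKO9, cKO14 and cKO15, against 75.3%, 78.7%, 78.4% and 73.8% in cHet8, cHet11, cHet12 and cHet14. The highest cKO share was below the lowest cHet share. The mean share was 53.7% ± 3.73 in cKO and 76.6% ± 2.36 in cHet (SD, n = 4 each), a difference of −22.9 percentage points (two-sided exact permutation p = 0.0286, the smallest that 4 against 4 libraries can give, and 0.0857 adjusted over the 3 pairs compared). Leaving out any 1 library gave a difference between −24.7 and −21.9 percentage points. The 3 pairs were not part of the plan made at the outset. Neither other pair separated the groups. Prrx1 took 40.1% ± 12.5 of the Prrx1 and Prrx2 counts in cKO and 44.7% ± 2.51 in cHet (exact p = 0.571), and Lhx6 took 52.2% ± 4.67 of the Lhx6 and Lhx8 counts in cKO and 60.4% ± 12.6 in cHet (exact p = 0.286, n = 4 each).

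**Figure D2:**
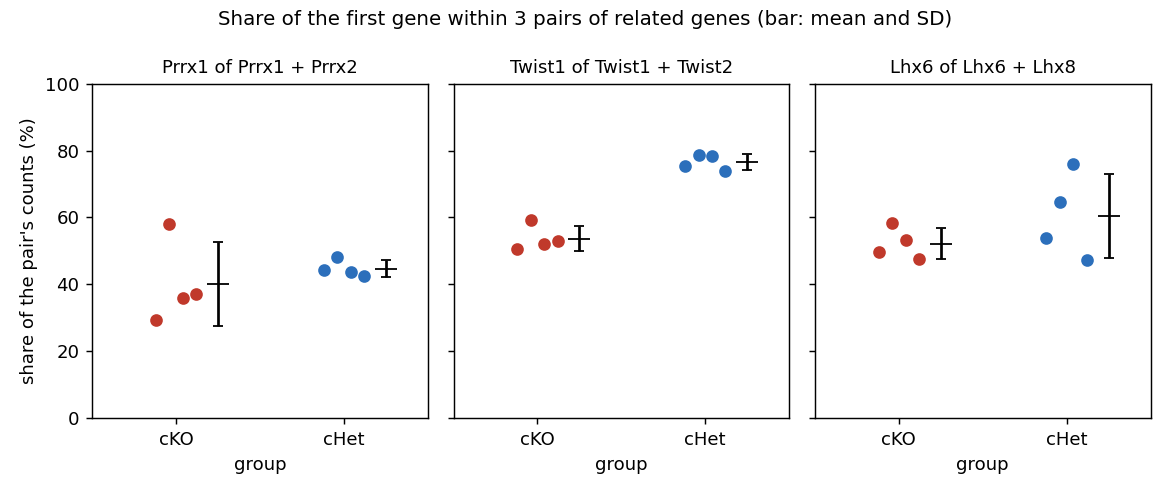
Share of the first gene in the summed counts of 3 pairs of related genes (percent), with 1 point for each library and the mean with its SD at the right; cKO stands left of cHet. The Twist1 share lies between 50.7% and 59.1% in cKO and between 73.8% and 78.7% in cHet, while the groups overlap in the other pairs.

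Osr2 and Barx1 mark parts of the molar field. Osr2 (ENSMUSG00000022330.6), a zinc finger factor that limits the tooth field on its tongue side in the mouse, had 247, 103, 199 and 278 CPM in cKO7, cKO9, cKO14 and cKO15, against 67.4, 18, 47.9 and 27.3 CPM in cHet8, cHet11, cHet12 and cHet14. No cHet library reached the lowest cKO library, cKO9. Its log2 fold change was the largest of the 10 (2.37, SE 0.46, a 5.15-fold higher mean), with an adjusted p of 0.0561 by edgeR. It passed with a filter of 1 CPM in 4 libraries (adjusted p = 0.0477) and without cKO9 (adjusted p = 0.0273).

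Barx1 (ENSMUSG00000021381.5), a homeobox gene of molar rather than incisor mesenchyme, had 226, 96.3, 192 and 252 CPM in cKO7, cKO9, cKO14 and cKO15. It had 91.5, 21.9, 76.2 and 52.3 CPM in cHet8, cHet11, cHet12 and cHet14. The gap between the groups was narrow, from 96.3 CPM in cKO9 to 91.5 CPM in cHet8. The mean was 3.17-fold higher in cKO (log2 1.66, SE 0.45, adjusted p = 0.121 by edgeR).

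Pax9 (ENSMUSG00000001497.19), a paired-box factor needed in the mouse for teeth to pass the bud stage, had 37.4, 28.9, 38.6 and 50.6 CPM in cKO7, cKO9, cKO14 and cKO15, against 20.5, 5.82, 20.4 and 12.5 CPM in cHet8, cHet11, cHet12 and cHet14. The groups were apart, with 38.9 ± 8.92 CPM in cKO and 14.8 ± 7.07 CPM in cHet (log2 1.39, SE 0.38, adjusted p = 0.126 by edgeR). The neighbouring gene Slc25a21 overlaps Pax9 on the other strand, so some Pax9 counts may belong to it.

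Lhx6 and Lhx8 encode LIM homeodomain proteins with shared roles in molar mesenchyme. Lhx6 (ENSMUSG00000026890.20) had 70.3, 33.1, 51.4 and 52.7 CPM in cKO7, cKO9, cKO14 and cKO15 and 22.7, 8.76, 33.0 and 10.8 CPM in cHet8, cHet11, cHet12 and cHet14. Its lowest cKO value, in cKO9, and its highest cHet value, in cHet12, were nearly equal. The log2 fold change was 1.46 (SE 0.44, adjusted p = 0.152 by edgeR). Lhx8 (ENSMUSG00000096225.8) had 71.2, 23.7, 45.2 and 58.1 CPM in the same cKO libraries, against 19.4, 4.82, 10.4 and 12.1 CPM in the same cHet libraries. The groups were apart and the mean was 4.24-fold higher in cKO (log2 2.08, SE 0.46, adjusted p = 0.0756 by edgeR, and 0.0334 without cKO9).

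Pitx1 (ENSMUSG00000021506.8), a bicoid-type homeobox gene of the lower jaw and hindlimb that is also known from dental epithelium, stood at like levels in both groups. It had 19.2, 24.2, 13.3 and 13.2 CPM in cKO7, cKO9, cKO14 and cKO15, against 17.4, 18.4, 20.2 and 20.2 CPM in cHet8, cHet11, cHet12 and cHet14. The cHet values all lay inside the cKO range. The log2 fold change was −0.12 (SE 0.23, adjusted p = 0.839 by edgeR), and its sign turned with the mesenchyme score (0.15) or the olfactory score (0.24) as covariate. The 12 markers of dental epithelium summed to 539 to 765 CPM in cKO and 649 to 887 CPM in cHet. Epcam weighed most in this sum, with means of 321 CPM in cKO and 437 CPM in cHet. Of the 12 log2 values 3 were positive, such as 0.47 for Krt14, and 9 negative, beside 47.5% of all tested genes positive. An antisense gene shares exonic sequence with Pitx1.

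The libraries fell into a like order for most of the set. In cHet, cHet11 was the lowest library for 9 of the 10 genes and cHet8 the highest for 7. In cKO, cKO9 was the lowest for 8 genes and cKO15 the highest for 6. The exceptions at the low end were Prrx1, lowest among cKO libraries in cKO7, and Pitx1, lowest in cKO15 and, among cHet libraries, in cHet8. The summed level of the set was 1019, 498, 847 and 1112 CPM in cKO7, cKO9, cKO14 and cKO15, against 374, 119, 330 and 213 CPM in cHet8, cHet11, cHet12 and cHet14. The mesenchyme markers had their lowest sums in the same libraries, with 14570 CPM in cKO9 among cKO and 3793 CPM in cHet11 among cHet.

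**Figure D3:**
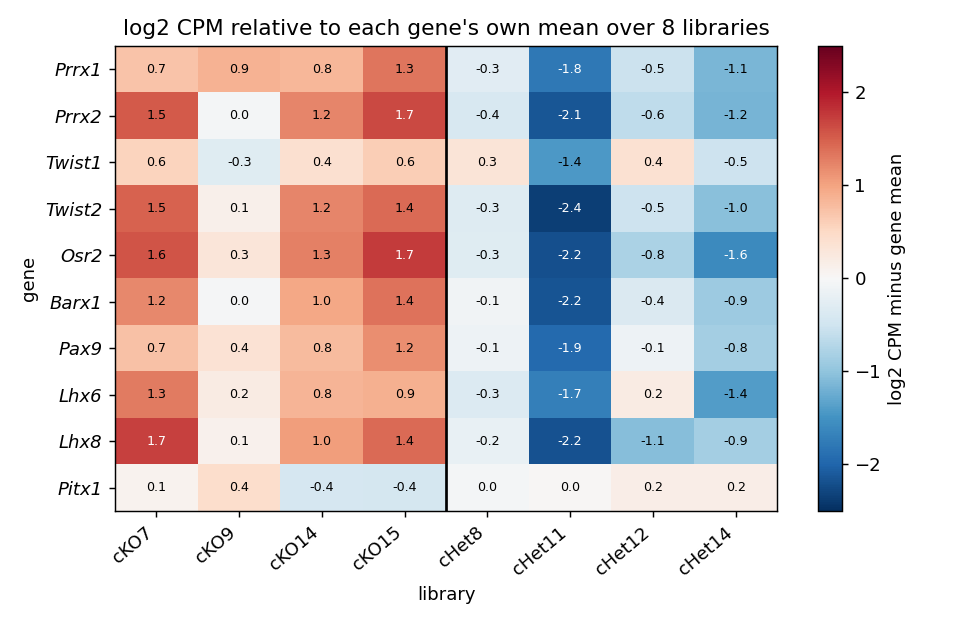
Level of each gene (rows) in each library (columns) as log2 CPM minus the gene's own mean over 8 libraries, red above and blue below that mean; cKO stands left of the line and cHet right of it. The column of cHet11 is the lowest of the cHet columns for 9 genes and that of cKO9 the lowest of the cKO columns for 8, and Pitx1 is in neither count.

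**Figure D4:**
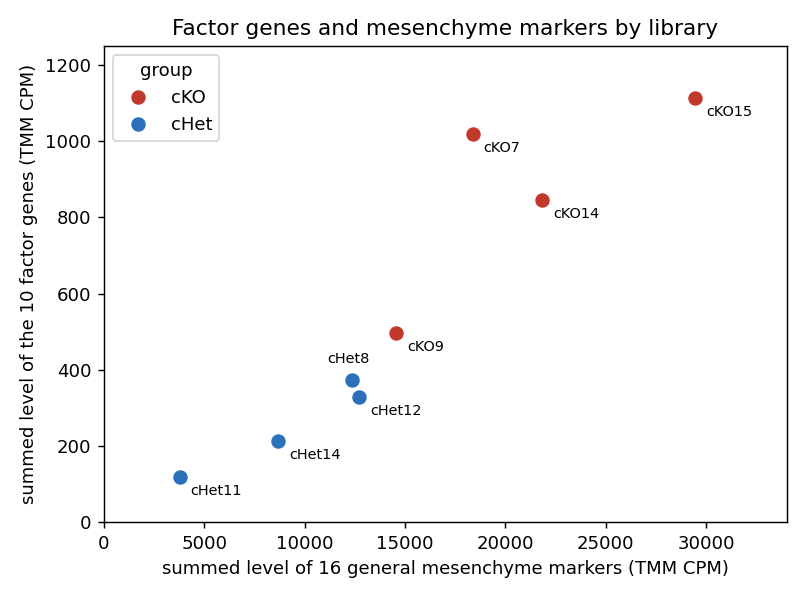
Summed level of the 10 genes (vertical axis, TMM CPM) against the summed level of 16 general mesenchyme markers (horizontal axis, TMM CPM), with 1 point for each library in red for cKO and blue for cHet. The cKO libraries lie at 498 to 1112 CPM for the genes and 14570 to 29449 CPM for the markers, above and to the right of all cHet libraries.

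Since the mesenchyme markers moved with the set, each gene was also expressed per 1000 counts of those markers. On this scale every cKO library was above every cHet library for 6 genes (Prrx1, Prrx2, Twist2, Osr2, Pax9 and Lhx8), beside 1.05% of all tested genes. Division by markers that stood higher in cKO lowers the cKO values of all genes, so that share is low partly through the scale itself. The gap was narrow for Pax9 (1.72 in cKO15 against 1.65 in cHet8) and for Lhx8 (1.63 in cKO9 against 1.56 in cHet8). Every cKO library was below every cHet library for Twist1, beside 33.7% of all tested genes. Osr2 had 13.5, 7.06, 9.13 and 9.43 per 1000 marker counts in cKO7, cKO9, cKO14 and cKO15, against 5.44, 4.75, 3.76 and 3.15 in cHet8, cHet11, cHet12 and cHet14. Twist1 had 2.32, 1.61, 1.75 and 1.51 in the same cKO libraries and 2.94, 2.81, 2.96 and 2.35 in the same cHet libraries. Osr2 thus kept separate groups with cKO above, while for Twist1 the groups, which overlapped in CPM, were separate with cKO below. Barx1, Lhx6 and Pitx1 had overlapping groups on this scale. The scale is a plain sum, so the collagens Col3a1 and Col1a1 weigh most, with means of 7604 and 5558 CPM in cKO. Log2 fold changes of the tested markers ran from −1.04 for Dcn to 2.04 for Pdgfra, with 1.38 for Col3a1 and 1.22 for Col1a1. The separate groups thus hold for this sum and need not hold for other markers. The log2 value of Pdgfra was above those of Prrx1 (1.80), Twist2 (2.03) and Pax9 (1.39). It was below those of Osr2 (2.37), Prrx2 (2.17) and Lhx8 (2.08). Division by other markers, such as Pdgfra alone, was not tested.

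In the edgeR test with libraries scaled to these markers, the median of all tested genes shifted to −1.42, and 0 of the 10 genes were called in either direction (smallest adjusted p = 0.0548, for Osr2). At an unadjusted p under 0.05 that scaling gave 2 genes higher (Prrx2 and Osr2), beside 0.716% of all tested genes, and 1 lower (Pitx1), beside 54.0%. On that scale the log2 values were 1.19 for Osr2, 0.97 for Prrx2, 0.92 for Lhx8, 0.91 for Twist2 and 0.63 for Prrx1. They were between 0.27 and 0.53 for Pax9, Lhx6 and Barx1, −0.62 for Twist1 and −1.43 for Pitx1. Relative to the median of −1.42 the values were 2.61 for Osr2, 2.39 for Prrx2, 2.34 for Lhx8, 2.33 for Twist2 and 2.05 for Prrx1. For Twist1 and Pitx1 these were 0.80 and −0.01. Subtracting the median takes out a shift common to all genes, so it largely undoes the scaling (unscaled 2.37 for Osr2 and 1.80 for Prrx1). With the mean log2 level of the mesenchyme markers as covariate, the log2 fold change was 1.21 for Osr2, 1.04 for Prrx1 and for Lhx8, 0.97 for Prrx2 and 0.82 for Twist2, and between 0.37 and 0.58 for Pax9, Barx1 and Lhx6. In that fit 3 of the 10 genes (Prrx1, Prrx2 and Osr2) were higher at an unadjusted p under 0.05, beside 3.43% of all tested genes, and 0 were lower, beside 3.53%. None passed adjustment (smallest adjusted p = 0.303 by edgeR). With the olfactory neuron score as covariate, 4 genes (Prrx1, Prrx2, Osr2 and Lhx8) were higher at an unadjusted p under 0.05, beside 3.71% of all tested genes, and 0 were lower, beside 2.58%. None passed adjustment (smallest adjusted p = 0.551 by edgeR). Genotype and these scores move together in 8 libraries, so their parts in the differences cannot be told apart.

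**Figure D5:**
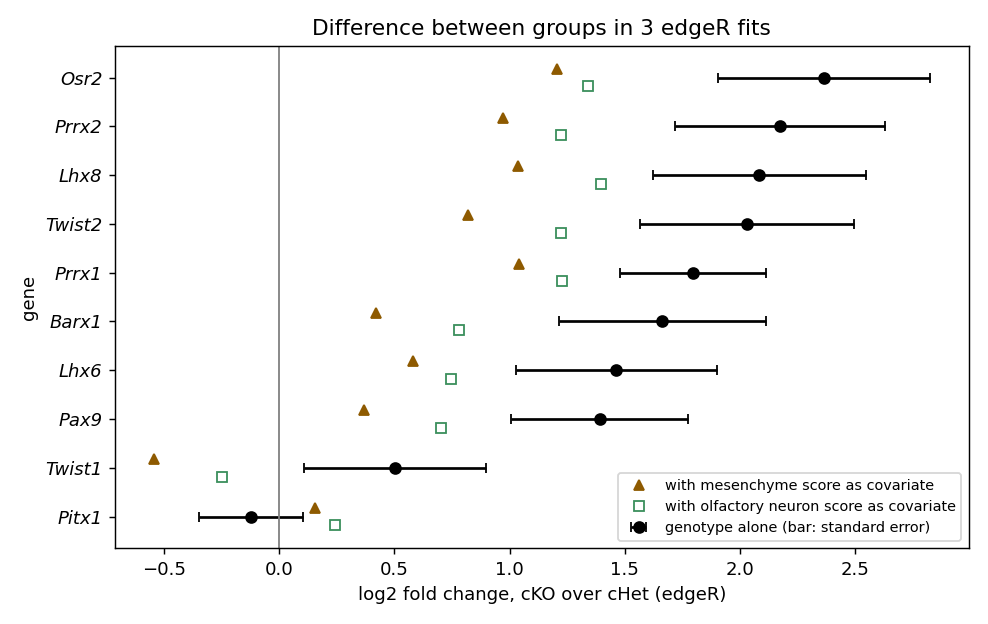
Log2 fold change, cKO over cHet, of each gene in 3 edgeR fits: genotype alone with its standard error (black points), with the mesenchyme score as covariate (brown triangles) and with the olfactory neuron score as covariate (open green squares). With a covariate, 8 genes keep positive but smaller values, Twist1 turns negative and Pitx1 turns positive.

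Other tools gave more calls. DESeq2 called 8 of the 10 genes higher, with adjusted p between 1.65e-05 for Prrx1 and 0.0193 for Lhx6, beside 5.78% of genes called higher, and 0 lower, beside 2.28%. Limma's voom test with quality weights called the same 8, with adjusted p between 0.0109 and 0.0286, beside 5.96%, and 0 lower, beside 1.26%. Neither tool called Twist1 (0.582 by DESeq2, 0.177 by voom) or Pitx1 (0.847 by DESeq2, 0.309 by voom). Within edgeR, Prrx1 alone was called without a filter on low counts (beside 0.586% of genes called higher) and with library size alone as scaling (beside 0.888%). Prrx1 and Osr2 were called with a filter of 1 CPM in 4 libraries (beside 1.70%), and none of the 10 with RLE factors (beside 0.832%). Without cKO9, Prrx1, Prrx2, Twist2, Osr2 and Lhx8 were called, beside 3.67% of genes, and without cHet8 Prrx1 alone, beside 0.698%. None of the 10 was called without cKO7 (beside 0.0357%), cKO15 (beside 0.0357%) or cHet11 (beside 0.0181%), nor without cKO14, cHet12 or cHet14, where 0 genes of the whole table were called higher.

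Levels of different genes were compared per kilobase of annotated exon, with exon lengths from GENCODE M21, which may not be the annotation behind the counts. These lengths join the exons of all annotated transcripts, so the order depends on them. Prrx1 had the longest (11.066 kilobases, against 1.399 for Barx1). Before division by length Prrx1 stood above Pax9 in cHet, with means of 26.5 and 14.8 CPM. In cKO, Barx1 was highest, with 137 ± 48.6 CPM per kilobase, ahead of Prrx2 with 76.7 ± 32.1 and Osr2 with 57.1 ± 21.1 (SD, n = 4). Prrx2 and Osr2 each lay below the gene ranked before them in all 4 cKO libraries, although the ranges of mean and SD overlapped. A gap beyond the spread separated these from the rest, which ran from Twist1 (22.8 ± 5.84) and Lhx8 (19.6 ± 7.99) through Lhx6 (10.8 ± 3.16), Twist2 (10.4 ± 3.64), Prrx1 (8.31 ± 1.72) and Pax9 (7.69 ± 1.76) to Pitx1 (6.58 ± 1.98), with no neighbours apart by more than their spread. In cHet, Barx1 was again highest (43.2 ± 21.7), followed by Prrx2 (17.0 ± 7.62), Twist1 (16.1 ± 8.0), Osr2 (11.1 ± 6.08) and Pitx1 (7.17 ± 0.514), and Prrx1 was lowest (2.39 ± 1.01). No neighbours in the cHet order differed beyond their spread.

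The other transcription factors of arch and dental mesenchyme gave 4 of 44 tested genes called higher by edgeR and 0 lower, beside 1.08% and 0.0558% of all tested genes, with a median log2 fold change of 0.89, against −0.03 for all tested genes. The groups did not overlap for 15 of the 44, all with cKO above, beside 6.46% of all tested genes with cKO above and 3.68% with cKO below. Sox4, a SOX factor of progenitor cells, rose to 212 ± 27.0 CPM in cKO, against 96.9 ± 12.4 CPM in cHet (log2 1.13, SE 0.14, adjusted p = 0.0271). Foxc2, a forkhead factor of cranial mesenchyme, rose to 30.6 ± 9.26 CPM in cKO, against 5.30 ± 2.19 CPM in cHet (log2 2.53, SE 0.38, adjusted p = 0.0376). The homeobox genes Dlx3 and Dlx4 rose to 239 ± 85.3 and 95.5 ± 30.3 CPM in cKO, against 52.1 ± 19.2 and 16.8 ± 8.27 CPM in cHet. The mesenchyme markers stood higher beside all of these, and with libraries scaled to them none of the 4 passed (adjusted p from 0.0548 for Dlx4 to 0.631 for Sox4). On that scale, where the median of all tested genes was −1.42, the log2 values were 1.23 for Foxc2, 0.89 for Dlx3, 1.33 for Dlx4 and −0.24 for Sox4.

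Of the dimer partners and cofactors, which include E proteins that pair with Twist, Id proteins that sequester them and LIM-domain cofactors, 1 of 20 tested genes was called higher and 0 lower, beside 1.08% and 0.0558% of all tested genes (median 0.14). The called gene was Id2, with 499 ± 191 CPM in cKO and 145 ± 31.4 CPM in cHet (log2 1.78, SE 0.32, adjusted p = 0.0471 by edgeR). Id1 had 156 ± 54.2 CPM in cKO and 53.1 ± 10.5 CPM in cHet (adjusted p = 0.0526), and Id3 572 ± 204 and 154 ± 57.9 CPM in cKO and cHet (adjusted p = 0.0579). Lmo2, a LIM-only protein gene of blood and endothelium, had 17.3 ± 4.04 CPM in cKO and 31.9 ± 6.02 CPM in cHet (log2 −0.89, adjusted p = 0.0977).

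Among 16 genes placed downstream of these factors in the mouse, 2 were called higher and 0 lower, beside 1.08% and 0.0558% of all tested genes (median 0.85). Bmp2, a secreted bone morphogenetic protein, and Tnc, the matrix protein tenascin C, had log2 values of 3.45 (SE 0.48, adjusted p = 0.0328) and 2.97 (SE 0.49, adjusted p = 0.0399) by edgeR. Msx1, a homeobox partner of Pax9, had 184 ± 65.6 CPM in cKO and 41.6 ± 19.4 CPM in cHet (adjusted p = 0.0573), and Postn, encoding periostin, had a log2 value of 2.18 (adjusted p = 0.0592). Of 14 inducing signals and their receptors, 1 was called higher and 0 lower, beside the same shares of all tested genes (median 0.35). It was Fgfr3, a receptor of fibroblast growth factors, with 154 ± 38.9 CPM in cKO and 25.2 ± 13.0 CPM in cHet (log2 2.61, SE 0.41, adjusted p = 0.0376 by edgeR). Smo, Ptch1 and Fgfr1 had log2 values of 1.73, 1.14 and 1.63 with adjusted p of 0.0592, 0.0697 and 0.0729.

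Genes with the pattern most like each member were found by the root mean square (RMS) difference in log2 CPM, centred on the gene's own mean, over the 8 libraries. The values are a description, and all 8 libraries share the group difference and the mesenchyme difference. Nearest to Prrx1 were Gli3, a transcription factor of the Hedgehog pathway (0.12), the adaptor gene Grb10 (0.14) and the fibrillin gene Fbn1 (0.16), which is one of the mesenchyme markers. Nearest to Prrx2 were Fbln5 (0.12), Gpx7 (0.12) and Serpinf1 (0.13), and nearest to Twist2 were Nbl1, a BMP antagonist (0.13), Col23a1 (0.13) and Olfml1 (0.13). Osr2 had the homeobox gene Dlx4 (0.13), the retinoic acid synthesis gene Aldh1a3 (0.13) and S1pr3 (0.15) as its nearest. Barx1 had the closest match of all, Rftn1 (0.08), before Acot11 (0.10) and the mesenchyme marker Fstl1 (0.11).

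Nearest to Pax9 were Bicc1 (0.13), Pheta2 (0.14) and Mylip (0.15), and nearest to Lhx8 were Islr (0.14), Col8a2 (0.17) and Prss35 (0.18). Lhx6 had the loosest matches, with Plin2 at 0.20, Tle6 at 0.21 and Gfra4 at 0.23. Twist1 had different nearest genes from Twist2, namely Hebp1 (0.12), Tcf7 (0.12), a TCF factor of the Wnt pathway, and Mmp23 (0.16). Tcf7 had means of 95.1 CPM in cKO and 79.2 CPM in cHet (log2 0.26, adjusted p = 0.806 by edgeR), and this sign turned to −0.85 with the mesenchyme covariate or scaling and to −0.55 with the olfactory covariate. Pitx1 was nearest to Rap1gap (0.11), the calcineurin subunit gene Ppp3ca (0.11) and Borcs7 (0.12). Within the set itself the closest pair was Prrx2 and Twist2 (0.15), followed by Twist2 and Barx1 (0.19) and by Prrx2 and Osr2 (0.22).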

How the data were processed

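The deposited table gives each of 8 libraries raw counts by gene, as whole numbers without normalization. Trim Galore, STAR and the builds GRCm39 and mm39 are named, per the submitters' processing notes; the sources used here give no counting tool, annotation or version. The low-input cDNA kit marks neither strand nor single molecules. Columns carry group names and numbers that match no sample title, so each was assigned to its group only. Ensembl identifiers were matched to symbols (52073 of 56748), and the identifier with the highest total stood for a symbol. Coordinates and exon lengths are those of GRCm38 references and were joined by gene name or identifier only.

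The comparison used edgeR 4.0.16 in R 4.3.3 (TMM factors, default expression filter, quasi-likelihood test, genotype as sole term, adjusted p under 0.05). For the SE, the log2 fold change was divided by the root of F. Alternatives included DESeq2 1.42.0 and limma 3.58.1. Scores are mean log2 CPM with a prior count of 2. In simulated counts of 20548 genes, the test found 63 of 100 genes changed 4-fold and 88 of 100 changed 16-fold, and 5 of its 156 calls were false. The members and lists were chosen with earlier results of these data known. Named genes were all members, up to 4 genes with the smallest p per list, and the 3 nearest in pattern per member with a mean of at least 5 CPM. Depth was 44444033 to 50051392 counts per library. The biological coefficient of variation common to all genes was 0.553.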

Additional observations from a re-analysis of the deposited data

Results flagged for a closer look

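Of 114 groups of 4 libraries checked for a lone extreme value, 3 held one, and chance gives about 1 in 20. Foxc2 stood at 16.9 CPM in cKO9, against 33.5 to 36.9 CPM in the other cKO libraries. Mmp23 stood at 12.7 CPM in cKO9, against 23.9 to 25.9 CPM in the other cKO libraries. Borcs7 stood at 40.04 CPM in cHet14, against 30.9 to 32.0 CPM in the other cHet libraries. None of the 10 transcription factor genes themselves had such a value.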

How the results depend on the processing

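The number of the 10 genes called higher was 1 with edgeR and genotype alone, 8 with DESeq2 or voom, 5 at a threshold of 0.10, 2 with a filter of 1 CPM in 4 libraries, and 0 with RLE factors (Prrx1 adjusted p = 0.0501), with mesenchyme scaling or with either covariate. Leaving out 1 library gave 0 to 5, the 5 without cKO9 (beside 3.67% of genes), 1 without cHet8, and 0 without any of the other 6. In each of those 6 fits 8 of the 10 had an unadjusted p under 0.05 by edgeR. Over all genes, 2562 to 3496 of the 22095 to 22398 tested had one, in either direction. No fit called a member lower. Over all genes 232 were higher and 12 lower, against 1386 and 547 with DESeq2, 1281 and 271 with voom, 704 and 62 at a threshold of 0.10, 5 lower without a filter, 8 and 3 with the mesenchyme covariate, 1 and 0 with the olfactory covariate and 0 and 0 with mesenchyme scaling (11769 genes at an unadjusted p under 0.05). Leaving out 1 library gave 0 to 816 higher (816 without cKO9) and 0 to 144 lower. The causes were not tested.

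Signs turned as follows. With mesenchyme scaling, where the median of all genes was −1.42, log2 values were −0.62 for Twist1, −0.19 for Ptch1, −0.24 for Sox4, −1.33 for Ctnnb1, −0.50 for Hebp1, −0.85 for Tcf7 and −0.46 for Mmp23. With the mesenchyme covariate they were −0.54 for Twist1, 0.15 for Pitx1, −0.11 for Ctnnb1, −0.49 for Hebp1, −0.85 for Tcf7, −0.30 for Mmp23, 0.31 for Rap1gap and 0.049 for Borcs7. With the olfactory covariate they were −0.25 for Twist1, 0.24 for Pitx1, −0.11 for Ctnnb1, −0.15 for Hebp1, −0.55 for Tcf7, 0.36 for Rap1gap, 0.0013 for Ppp3ca and 0.17 for Borcs7. Leaving out 1 library, Rap1gap lay between −0.35 and 0.022 (without cKO15) and Tcf7 between −0.0058 (without cHet11) and 0.49.

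No paired analysis was possible because the columns carry none of the replicate numbers of the labels. Each member's symbol had 1 identifier, so summing identifiers gave no alternative. The leave-one-out of the Twist1 share was chosen after seeing the data.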

Other observations

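Several other transcription factors of arch mesenchyme, chosen here after their values were seen, had means that differed little or lay lower in cKO, without passing. Runx2, the bone and tooth factor, had 39.96 CPM in cKO and 32.5 CPM in cHet (log2 0.30, SE 0.34). Sox11 had 326 CPM in cKO and 397 CPM in cHet (log2 −0.28, SE 0.25), and Pbx3 had 74.0 and 91.6 CPM in cKO and cHet (log2 −0.31, SE 0.20). Of the frontonasal Alx genes, Alx1 had 3.41 CPM in cKO and 5.91 CPM in cHet (log2 −0.79, SE 1.04). Within the general mesenchyme markers, 13 of 15 tested genes had positive log2 values, and the proteoglycan genes Dcn and Lum had negative ones, with 167 and 479 CPM in cKO against 343 and 757 CPM in cHet (adjusted p = 0.257 and 0.545 by edgeR).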
